A study of Mus musculus with 6 samples.

Results

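The medial ganglionic eminence (MGE) is the part of the embryonic ventral telencephalon that gives rise to many cortical and striatal interneurons and to neurons of the basal forebrain. This account covers 8 transcription factor genes known for MGE patterning or for the neurons that leave it: Nkx2-1, Nkx6-2, Lhx6, Lhx8, Sox6, Maf, Zeb2 and Satb1. They were chosen by name, with earlier results of these data known. On the Affymetrix Mouse MOE430 2.0 array, 25 of 45037 non-control probe sets carry 1 of these symbols and no other in the platform annotation, and all 8 genes have at least 1 of them. Of the 25, 19 probe sets of 6 genes passed the filter on dim signal, which asked for a value above the array's own median on at least 3 of the 6 arrays, and 6 did not pass. Nkx2-1 and Nkx6-2 are each represented by a single probe set, and neither passed.

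The arrays carried RNA of mouse embryos of embryonic day E13.5 in 2 genotypes, Olig2-/- (Olig2 ko, 3 arrays: replicates 2, 4 and 5) and Olig2+/+ (Olig2 wt, 3 arrays: replicates 1, 4 and 5). The tissue is named ventral forebrain in the design text and ventral telencephalon in the labels, and each array holds RNA pooled from 3 brains. Of the 5 replicates that the design text gives each genotype, 3 are analysed here. Strain, the allele's construction and the embryos' litters are stated in none of the sources used here, so p-values measure the spread between these pooled samples. Olig2 is a basic helix-loop-helix factor made by dividing cells of the ventral forebrain, among them those of the MGE.

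Values are log2 expression values per probe set, normalized by the authors, and differences are Olig2 ko minus Olig2 wt on that scale. The lowest value on every array was 2.27, and 33.2% to 33.7% of values lay within 0.03 of it, so a probe set there is at the floor of the measurement. Array medians were 3.14 to 3.20. The single Olig2 probe set read 7.48, 7.53 and 7.76 on the ko arrays (replicates 2, 4 and 5), against 8.20, 8.22 and 8.42 on the wt arrays (replicates 1, 4 and 5). Every ko array lay below every wt array for Olig2, yet the signal did not reach the floor, and no source used here says whether its probes bind inside the deleted sequence. Over all non-control probe sets ko replicate 2 correlated best with wt replicate 4 (Pearson r = 0.9975), above its r of 0.9937 and 0.9943 with the other ko arrays. Of all kept probe sets, 18.8% had these 2 arrays both above or both below the other 4. Differences are therefore also given for several probe sets without single arrays or without this pair.

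In the MGE, Nkx2-1 is the homeodomain factor that gives progenitors their regional identity, downstream of Sonic hedgehog signalling, and it activates Lhx6 in cells that leave the cycle. Lhx6, a LIM-homeodomain factor, is needed for the migration and later identity of interneurons, while its relative Lhx8 directs cholinergic neurons of the basal forebrain. Sox6, Maf and Satb1 act after Lhx6 or beside it as interneurons settle and mature, and Zeb2 steers interneurons towards the cortex and lowers Nkx2-1 in them. Nkx6-2 is a homeodomain factor of the border between the medial and the lateral eminence.

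None of the 19 kept probe sets differed between the genotypes at limma's adjusted p of 0.05, and neither did any other (0% of 22565 kept probe sets). The smallest adjusted p of a member was 0.511, which is also the smallest of all kept probe sets. At an unadjusted p below 0.05 there was 1 member probe set of 19 (5.26%), against 9.4% of all kept probe sets. All ko arrays were above or all below the wt arrays for 3 of 19 (15.8%), against 16.2% of all. Both shares were at or below the background, so these counts are no result about the members. By mean, 11 of the 19 were higher in ko (57.9%, against 50.5% of all) and 8 lower, with a median difference of 0.02 (0.00 over all kept probe sets). The median size of the difference, without its sign, was 0.24 for the members and 0.13 over all kept probe sets. The members also varied more over the 6 arrays regardless of genotype. Their median span from lowest to highest array was 0.75, against 0.47 over all kept probe sets, so the larger differences are no result about genotype.

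Nkx2-1 could not be followed on this platform. Its probe set 1422346_at read 2.72, 2.95 and 2.72 on the ko arrays, against 2.72, 3.36 and 2.69 on the wt arrays. It exceeded the array median on 1 of 6 arrays, wt replicate 4, and the groups overlapped. Nkx6-2 lay near the floor, between 2.33 and 2.34 on all 6 arrays (1427420_at). A level near the floor gives no information on a difference between the genotypes, and it does not show that either gene was silent, since a probe set can also bind its target poorly.

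**Figure D1:**
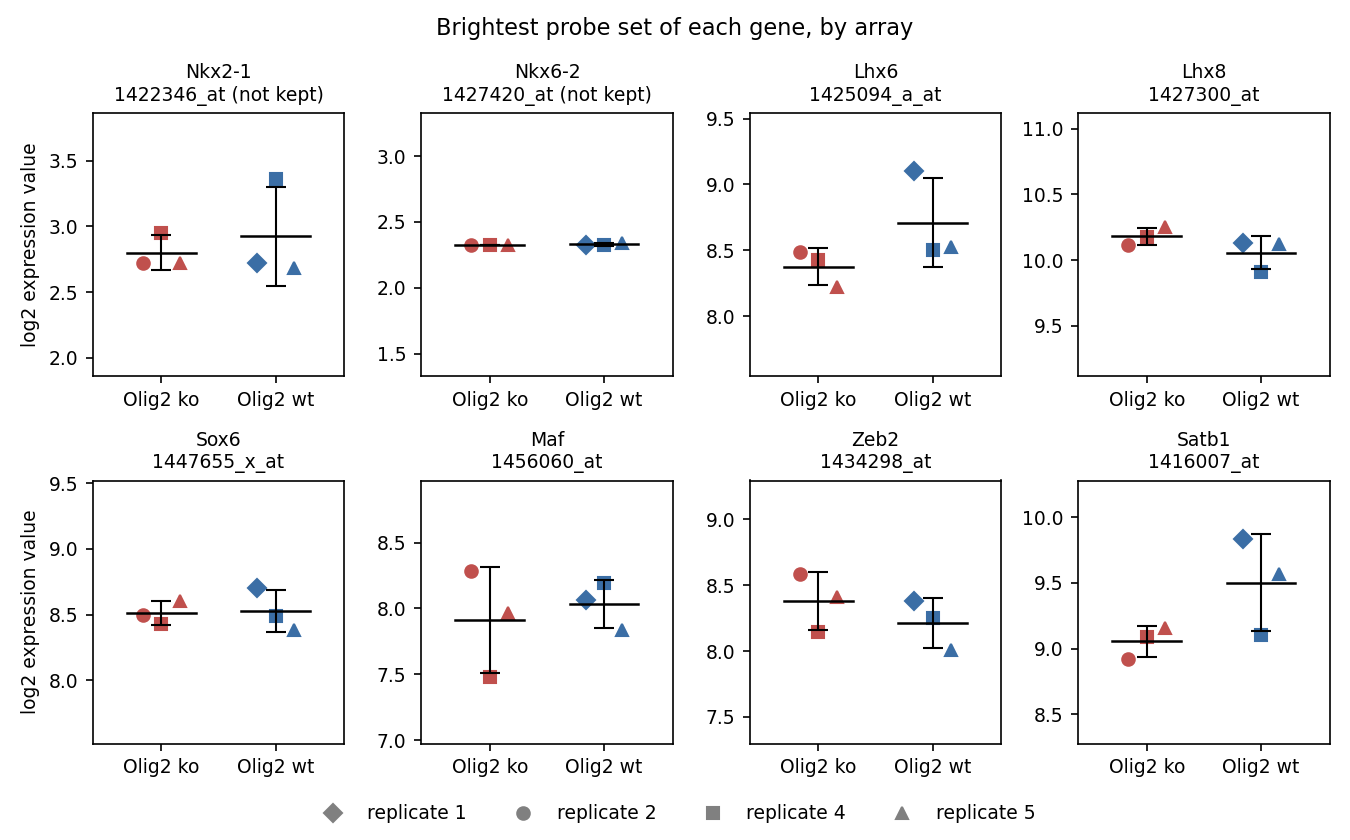
Log2 expression value of the brightest probe set of each of the 8 genes on the 3 Olig2 ko arrays (red, left) and the 3 Olig2 wt arrays (blue, right), with marker shapes for replicate numbers and lines for the mean ± SD. All panels span the same 2 log2 units. Lhx6 is the only gene shown whose ko arrays all lie below all wt arrays among those that passed the filter, and Nkx2-1 and Nkx6-2 sit near the floor of 2.27.

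Lhx6, made in cells of the MGE that have left the cycle and in the interneurons they become, was well above the floor on all arrays. Its brighter probe set, 1425094_a_at, read 8.49, 8.42 and 8.22 on the ko arrays, against 9.10, 8.50 and 8.53 on the wt arrays. All ko arrays lay below all wt arrays, but ko replicate 2 and wt replicate 4 were 8.49 and 8.50, and wt replicate 1 stood apart above the other 5. The means were 8.38 ± 0.14 in ko and 8.71 ± 0.34 in wt (SD, n = 3 each), a difference of -0.33 (SE 0.18, 95% interval -0.79 to 0.12, limma's adjusted p = 0.525). Without wt replicate 1 the difference was -0.14, and without both ko replicate 2 and wt replicate 4 it was -0.49. The dimmer probe set, 1422262_a_at, did not show it: it read 5.27, 5.43 and 4.75 in ko, against 5.31, 5.10 and 4.97 in wt. Its difference was 0.03 (limma's adjusted p = 0.968), and the groups overlapped. The suffix _a_at marks probe sets that recognise several transcripts of a gene, so the pair need not read the same Lhx6 transcripts.

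Lhx8, the factor of cholinergic basal forebrain neurons, had little spread. Its single probe set, 1427300_at, read 10.12, 10.18 and 10.25 on the ko arrays, against 10.13, 9.91 and 10.13 on the wt arrays. The groups overlapped, with wt replicate 4 lowest and the other 5 arrays within a narrow range. The difference was 0.13 (SE 0.09, limma's adjusted p = 0.575), and its 95% interval ran from -0.09 to 0.35. It was 0.05 without wt replicate 4. On the linear scale the ko mean was 1.09 times the wt mean.

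Sox6 had 4 kept probe sets, which split into 2 higher and 2 lower in ko. Sox6 is a SoxD factor needed for MGE interneurons to take up their cortical layers, and in cortical progenitors it is present as well. The brightest, 1447655_x_at, read 8.50, 8.43 and 8.61 in ko, against 8.70, 8.49 and 8.39 in wt, a difference of -0.01 (95% interval -0.27 to 0.25). The suffix _x_at marks probes that may bind transcripts of other genes, so this value is uncertain as a measure of Sox6. The dimmest, 1426018_a_at, read 5.66, 4.90 and 5.40 in ko, against 4.07, 5.06 and 4.70 in wt. Ko replicates 2 and 5 were above all wt arrays and ko replicate 4 was not, being below wt replicate 4. Its difference of 0.71 (SE 0.31, 95% interval -0.05 to 1.47, limma's adjusted p = 0.511) was the largest among the 19 kept member probe sets. Without wt replicate 1, which was lowest, it was 0.44.

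For Sox6 probe set 1427677_a_at the groups did not overlap: 8.12, 7.49 and 7.62 in ko, against 7.49, 7.37 and 7.41 in wt. Ko replicate 4 and wt replicate 1 differed by less than 0.01, and ko replicate 2 stood above the rest. The difference was 0.32 (SE 0.17, limma's adjusted p = 0.519) and 0.13 without ko replicate 2. Probe set 1434918_at went the other way, at -0.21 (SE 0.17, limma's adjusted p = 0.609), with wt replicate 1 highest at 8.18 and the groups overlapping. Without that array it was -0.04. No single direction can therefore be given for Sox6.

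Maf, a basic leucine zipper factor of maturing MGE interneurons, had 6 probe sets. Probe sets 1447945_at and 1444073_at were at the floor on all 6 arrays, at 2.29 and 2.28. The brightest, 1456060_at, read 8.29, 7.48 and 7.97 in ko, against 8.06, 8.20 and 7.84 in wt, so the ko arrays held both the highest and the lowest value. Its difference was -0.12 (95% interval -0.66 to 0.42, limma's adjusted p = 0.822), which was -0.31 without ko replicate 2 and 0.10 without ko replicate 4. The dim probe sets 1437473_at and 1435828_at differed by -0.17 and -0.30, with means between 3.96 and 4.26, and by -0.09 and -0.06 without wt replicate 1. Probe set 1447849_s_at differed by 0.24 (SE 0.13, limma's adjusted p = 0.524), with 6.21, 5.95 and 6.23 in ko, against 5.75, 6.12 and 5.79 in wt. The suffix _s_at marks probes shared by transcripts of more than 1 gene in the array's design, which makes this value uncertain as a measure of Maf. All 4 kept Maf probe sets had overlapping groups.

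Satb1 is a chromatin organiser that promotes the maturation of somatostatin interneurons, and it is also made in other parts of the brain. Its brightest probe set, 1416007_at, read 8.92, 9.09 and 9.16 on the ko arrays, against 9.83, 9.10 and 9.57 on the wt arrays. Wt replicates 1 and 5 lay above all ko arrays, and wt replicate 4 lay among them. The means were 9.05 ± 0.12 in ko and 9.50 ± 0.37 in wt (SD, n = 3 each), a difference of -0.45 (SE 0.19, 95% interval -0.92 to 0.03, limma's adjusted p = 0.511). It was -0.28 without wt replicate 1, -0.64 without wt replicate 4 and -0.58 without both ko replicate 2 and wt replicate 4.

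The second Satb1 probe set, 1416008_at, is annotated with the same sequence record as 1416007_at and was about as bright, but did not share its pattern. It read 8.95, 9.08 and 9.09 in ko, against 8.77, 9.13 and 9.07 in wt. Wt replicate 1, the highest array for 1416007_at, was the lowest here, and the difference was 0.05 (95% interval -0.23 to 0.34). Probe set 1436182_at had the narrowest span of the 19, from 6.95 to 7.19, with a difference of 0.02 (95% interval -0.20 to 0.23). The dim 1439449_at ranked the 6 arrays in the same order as 1416007_at, at 3.32, 3.50 and 3.65 in ko, against 4.09, 3.54 and 3.97 in wt (difference -0.38, SE 0.17, limma's adjusted p = 0.511). The remaining one, 1439315_at, was near the floor and not kept. Of the kept Satb1 probe sets, 2 thus had lower means in ko and 2 had differences near 0.

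Zeb2, a zinc finger homeodomain repressor, was the one gene with 2 or more kept probe sets whose differences all had the same sign. All 4 had a higher mean in ko, by 0.17 to 0.55, and none passed. Probe set 1456389_at read 7.99, 7.85 and 8.27 in ko, against 7.05, 7.71 and 7.71 in wt. Every ko array lay above every wt array, and wt replicate 1 was lowest. The means were 8.04 ± 0.22 in ko and 7.49 ± 0.38 in wt (SD, n = 3 each), a 1.46-fold higher ko mean (difference 0.55, SE 0.22, 95% interval 0.01 to 1.08). It was the one member probe set with an unadjusted p below 0.05 (limma's adjusted p = 0.511). The difference was 0.33 without wt replicate 1 and 0.68 without both ko replicate 2 and wt replicate 4.

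The brightest Zeb2 probe set, 1434298_at, read 8.58, 8.14 and 8.41 in ko, against 8.38, 8.25 and 8.01 in wt, with overlapping groups (difference 0.17, SE 0.15, limma's adjusted p = 0.638). That difference was 0.07 without ko replicate 2, 0.07 without wt replicate 5 and 0.29 without ko replicate 4. The dim 1458941_at differed by 0.33 (SE 0.24), by 0.22 without ko replicate 2 and by 0.08 without wt replicate 1, where it was lowest. The third bright probe set, 1422748_at, had the widest span of all 19: 8.67, 7.56 and 7.47 in ko, against 7.01, 8.73 and 7.02 in wt. Ko replicate 2 and wt replicate 4 stood more than 1 log2 unit above the other 4 arrays, the pair that resembles each other over the whole array. Its difference of 0.31 had an SE of 0.57, and it was -0.08 without ko replicate 2, 0.88 without wt replicate 4 and 0.50 without both. With both left out the ko values of 7.56 and 7.47 lay above the wt values of 7.01 and 7.02 (limma's adjusted p = 0.249). The remaining Zeb2 probe set, 1454200_at, was above the array median on 2 arrays and was not kept.

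**Figure D2:**
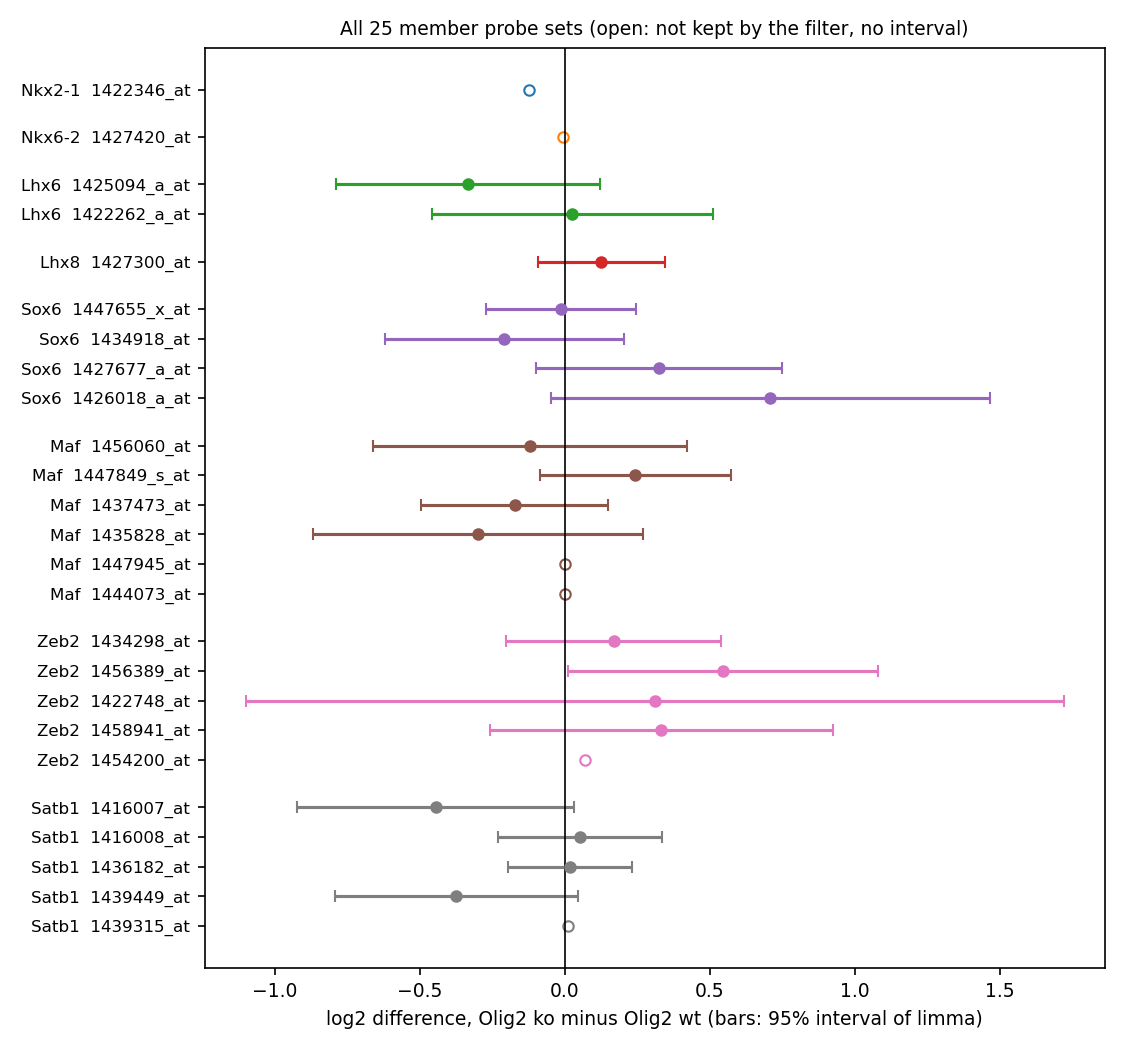
Log2 difference, Olig2 ko minus Olig2 wt, of all 25 member probe sets, with 95% intervals from limma for the 19 kept ones (filled) and none for the 6 others (open). The 4 kept Zeb2 probe sets lie between 0.17 and 0.55, those of Sox6, Maf and Lhx6 fall on both sides of 0, and 1 interval of 19, that of Zeb2 1456389_at, excludes 0.

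The arrays of 1 genotype also differed among themselves for the members. The median SD over the 19 kept probe sets was 0.20 in ko and 0.20 in wt, beside the median size of the difference of 0.24, and the wt SD was the larger in 14 of 19. The share over all kept probe sets was not computed for that last count. Wt replicate 1 was the highest or the lowest of the 6 arrays for 14 of 19, against 55.1% of all kept probe sets. It was highest for 7 of them (26.6% of all kept probe sets), among them 1425094_a_at of Lhx6 and 1416007_at of Satb1. It was lowest for 7 (28.4% of all), among them 3 probe sets of Zeb2. Ko replicate 2 was highest for 5 (11.9% of all), which were probe sets of Sox6, Maf or Zeb2. Ko replicate 2 and wt replicate 4 both lay above or both below the other 4 arrays for 4 of 19 (21.1%), near the 18.8% of all.

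**Figure D3:**
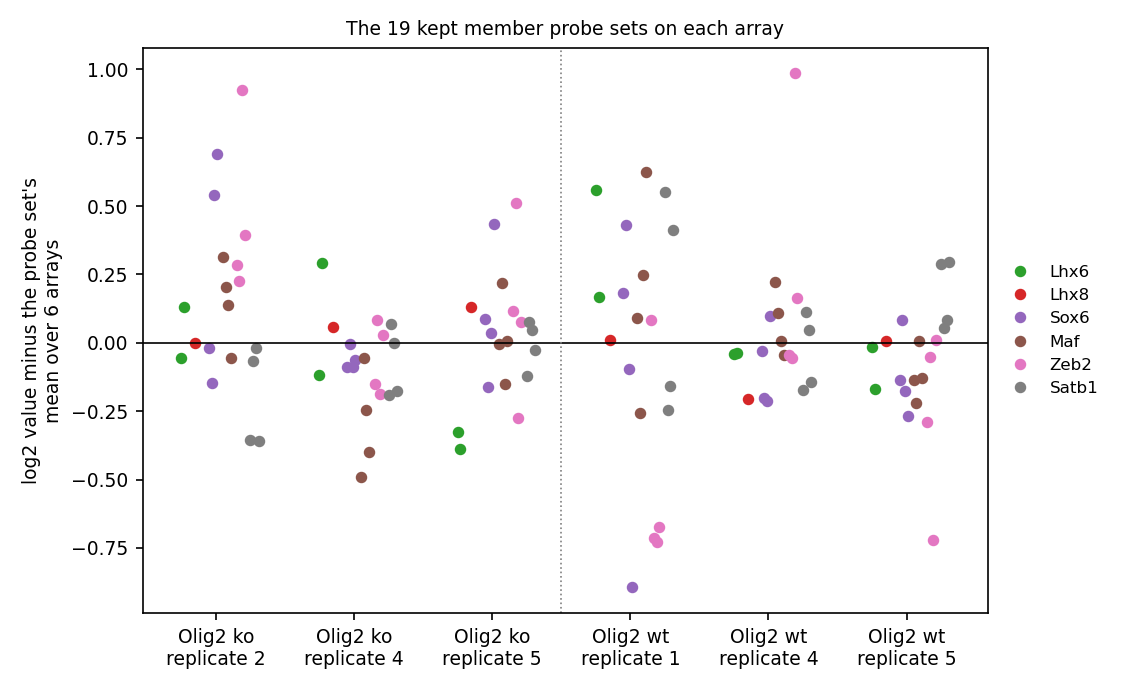
Each kept member probe set on each array, as its log2 value minus its own mean over the 6 arrays, coloured by gene, with Olig2 ko arrays left of Olig2 wt arrays. On wt replicate 1, 3 of the 4 Zeb2 points lie low, and the Zeb2 probe set 1422748_at lies high on ko replicate 2 and wt replicate 4 alike.

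Summed signals of gene lists of other cells were also extreme on wt replicate 1 or ko replicate 2. The neuron list had 13 of 14 genes lower by mean in ko, Mapt among them and Stmn2 the exception at 0.02, and none called. Its median was -0.10, with Dcx and Tubb3 at -0.02 and Mapt at -0.56. Summed linear signal was 24152 to 25825 on the ko arrays and 26435 to 32093 on the wt arrays, highest on wt replicate 1. Bright genes weigh most in such a sum, and Mapt read 12.91 on that array against 11.67 to 12.10 on the others. The list of proliferating cells had its lowest sum, 12216, on wt replicate 1, against 14548 to 15818 on the other arrays. Among mesenchymal genes, 4 of 11 measured passed the filter, and their sum was 666 on ko replicate 2, 461 and 472 on the other ko arrays and 413 to 580 on the wt arrays. The 4 genes did not share this pattern. Col3a1 and Pdgfrb were highest on ko replicate 2, while Foxd1 was highest on wt replicate 5 and Crabp2 was lowest on ko replicate 2, at 7.30. Named after their values were seen, the collagen genes Col1a1 and Col3a1 were both highest on ko replicate 2. Col1a1, which was not kept, read 4.36 on that array and 2.27 to 2.39 on the other arrays, wt replicate 4 included. Col3a1 was raised on wt replicate 1 as well: it read 8.10 on ko replicate 2, 6.20 on wt replicate 1 and 4.04 to 4.67 on the other arrays. Other mesenchymal genes that were not kept split: Col1a2 and Lum were highest on ko replicate 2, but Dcn, Foxc1 and Twist1 were highest on wt replicate 1. The part of these cells in the values of Lhx6, Satb1, Sox6 and Zeb2 was not tested. In such bulk RNA, fewer cells of a type and less RNA per cell cannot be told apart.

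The genes whose arrays followed Lhx6 (1425094_a_at) most closely were Ski, Ctxn1, Kif21b, Ahdc1 and Ppfia3. Their values, centred over the 6 arrays, differed from those of Lhx6 by a root mean square of 0.04 to 0.05, over 3990 genes that span at least 0.5. All 5 were highest on wt replicate 1, and they differed between the genotypes by -0.40 to -0.27. Both features follow from how the genes were chosen, since Lhx6 itself was highest on wt replicate 1 and differed by -0.33. For Nkx2-1 the nearest was the predicted gene Gm15663, then Clybl, 4931406H21Rik, Pde7b and Slc4a2 (root mean square 0.05 to 0.11), each highest on wt replicate 4. Since Nkx2-1 was near the floor, that likeness rests mainly on 1 array.

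Genes upstream of the members or working beside them were read from lists with their brightest kept probe set. In the list of MGE patterning and neurogenesis, 13 of 19 genes were kept, 0 were called, and the genotypes did not overlap for 3 higher and 1 lower gene, with a median of -0.05 (0.00 over all 10630 genes, where 16.4% did not overlap and 0% were called). The homeobox genes of all ventral eminences were bright and close between the genotypes: Dlx1 differed by -0.12, Dlx2 by -0.15, Dlx5 by -0.07 and Dlx6 by 0.02. Gsx2, which sets lateral eminence progenitors apart and is present more weakly in the MGE, read 6.74, 6.68 and 6.38 in ko, against 5.94, 6.17 and 6.06 in wt. Its groups did not overlap (difference 0.54, limma's adjusted p = 0.511).

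Genes of GABAergic and migrating neurons showed 0 called of 18 kept, with 6 higher, 12 lower and a median of -0.04. Of the 18, 1 higher and 1 lower gene had groups without overlap, against 16.4% of all genes. The glutamate decarboxylase genes Gad1 and Gad2, which make GABA, differed by -0.10 and -0.06, and dimmer probe sets by 0.15 and 0.26. The vesicular GABA transporter Slc32a1 differed by -0.24. The chemokine receptors of migrating interneurons split, Cxcr4 by 0.47 (SE 0.22) and Ackr3 by -0.02. The neuropeptide genes Sst and Npy, which mark interneurons, differed by less than 0.02, while Erbb4 was near the floor, between 2.65 and 2.69.

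In the list for the cholinergic lineage that Lhx8 directs, all 6 kept genes were lower by mean, against 5371 of all 10630 genes. Of the 6, 2 had groups that did not overlap, 0 were called and the median was -0.25. The LIM-homeodomain gene Isl1, which acts with Lhx8, read 10.76, 10.91 and 11.00 in ko, against 10.86, 10.92 and 10.96 in wt (difference -0.02). Gbx1 differed by -0.23 with overlapping groups. Gbx2, made in some MGE neurons and in the thalamus, read 5.14, 5.84 and 6.07 in ko, against 6.93, 7.28 and 6.97 in wt. Its groups lay apart, with a difference of -1.38 (SE 0.25, limma's adjusted p = 0.511), and it is itself a member of the thalamus list. In that list 11 of 13 genes, Gbx2 among them, were lower by mean, with a median of -0.52 and 0 called. Groups did not overlap for 6 of the 13, all lower, against 16.4% of all genes. The summed signal of the 13 was 3006 to 3818 in ko and 3768 to 4579 in wt. The part of thalamic tissue in the Gbx2 value was not tested. Chat, the enzyme that makes acetylcholine, was at the floor in both genotypes, as were Slc18a3 and Slc5a7 of the same list. The count of lower genes therefore does not measure cholinergic neurons.

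Sonic hedgehog, the signal upstream of Nkx2-1, read 8.53, 8.85 and 8.87 in ko, against 8.79, 8.71 and 9.19 in wt, with overlapping groups. It differed by -0.15 at its brighter probe set and by 0.31 at the dimmer one. Its receptor and target Ptch1 had 10.82, 10.82 and 10.85 in ko, against 11.06, 10.93 and 11.29 in wt, without overlap (difference -0.26, limma's adjusted p = 0.511). A dimmer Ptch1 probe set differed by 0.18. Gli1, another target, was near the floor on most arrays and not kept. Of 11 pathway genes kept, 8 were lower, 3 higher and 0 called.

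Nkx2-1 also marks the hypothalamus, and other factors of that region were present in the tissue. Otp and Sim1, the brightest of 10 kept hypothalamic genes, read between 7.12 and 8.63, while Rax and Nr5a1 were near the floor. The list had 6 higher, 4 lower, 0 called, and no gene without overlap. The lateral ganglionic eminence and striatum list had 14 kept genes, with Meis2 and Bcl11b the brightest, 6 higher, 8 lower and a median of -0.09. Of the 14, 3 higher and 2 lower genes had groups without overlap, against 16.4% of all genes. The 6 kept member genes, by their brightest probe set, had 2 higher, 4 lower and a median of -0.07.

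**Figure D4:**
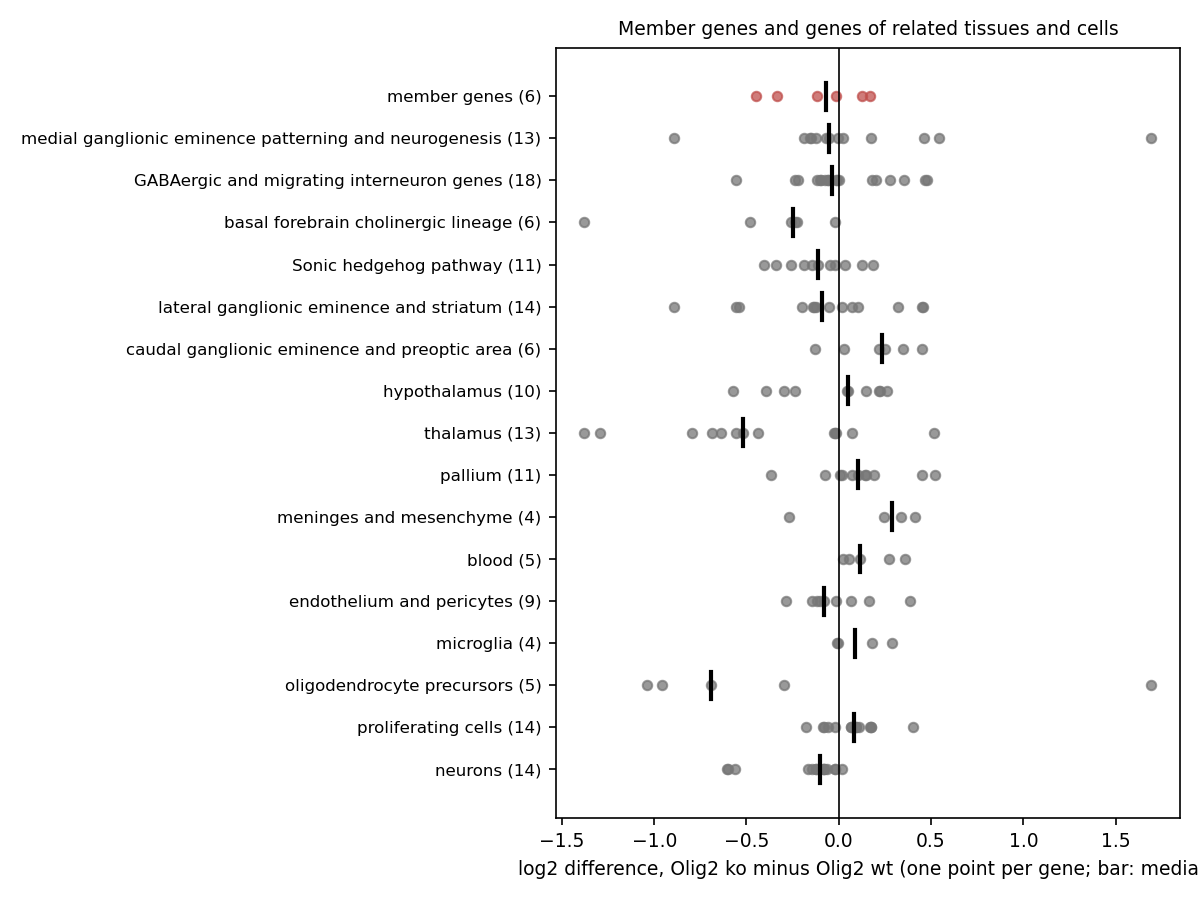
Log2 difference, Olig2 ko minus Olig2 wt, of the 6 kept member genes (red, top) and of kept genes of related tissues and cells (grey), 1 point per gene at its brightest probe set, with bars for medians and the number of genes in brackets. The member genes lie between -0.45 and 0.17 with a median of -0.07, and no gene shown passed limma's adjusted threshold.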

How the data were processed

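The log2 expression values per probe set are those the authors deposited. Per the series design text, probe signals were quantile-normalized, summarised and put on the log2 scale with GCRMA, and GCOS and MAS5 also appear in the submitters' processing notes. Versions are stated in none of the sources used here. Of 45037 non-control probe sets, 34945 carry 1 symbol in the platform annotation, 932 several and 9160 none. Kept were 22565 probe sets that exceeded the array median on 3 or more of 6 arrays. GCRMA compresses differences near the floor, and quantile normalization hides changes in total RNA. Genotypes were compared with limma 3.58.1 in R 4.3.3 (two-sided), with Benjamini-Hochberg adjustment over all kept probe sets and a threshold of 0.05. The step was tested on simulated data. A gene is its brightest kept probe set (10630 genes). The members, lists and tests were chosen with earlier results of these data known. Named are all members, Olig2, fixed genes of the related lists, the 2 brightest genes of other lists, and the genes nearest Lhx6 and Nkx2-1. Some list genes named outside this rule, among them Rax, Nr5a1, the collagen genes and genes near the floor, were picked otherwise. The number of arrays limits the precision. Groups come from the sample titles. Other filters, scalings, variance models, array weights, a replicate block and left-out arrays were tried as alternatives.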

Additional observations from a re-analysis of the deposited data

How the results depend on the processing

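No member probe set and no other probe set passed limma's adjusted 0.05 under any filter, scaling, variance model, weighting, block or left-out array tried. At an unadjusted p below 0.05 there were 2121 probe sets in limma (1 of them a member), and between 1121 and 3491 under the alternatives, the most with array weights (3 members). Members with such a p numbered 0 to 6 under the alternatives. They were 6 of 19 without wt replicate 4, against 15.5% of all kept probe sets. They were 0 of 19 without wt replicate 1 (6.21% of all) and without ko replicate 2 (10.6% of all). The count of member probe sets without overlap, 3, was 3 to 10 with 1 array left out, 10 of them without wt replicate 4, where 34.7% of all kept probe sets did not overlap. It was 13 with ko replicate 2 and wt replicate 4 both left out (48.9% of all) and 6 with a replicate block over replicates 4 and 5 only (40.1% of all), fits with fewer arrays. Of the 6 member genes, 2 to 4 had a higher mean in ko with 1 array left out, 4 of them without ko replicate 4. Sox6, at -0.01, changed sign with array weights (0.083), median centring (0.006), the replicate block over replicates 4 and 5 (0.081) and the mean of its probe sets (0.203), and ranged from -0.084 to 0.074 with 1 array left out. Maf, at -0.12, ranged from -0.31 to 0.10, above 0 only without ko replicate 4. Differences of the other 4 genes, at their brightest probe sets, kept their sign. The 4 kept Zeb2 probe sets were all higher in ko under both other scalings, but 1422748_at was at -0.36 and 1458941_at at -0.035 with the replicate block over replicates 4 and 5 only. Same-numbered arrays did not pair uniformly: their deviations correlated at -0.29 for number 4 but at 0.32 for number 5. For ko replicate 2 with wt replicate 4 the value was 0.38. A replicate block (duplicateCorrelation) left 0 called and 2089 at an unadjusted p below 0.05. A term for ko replicate 2 and wt replicate 4, added after seeing the data, also left 0 called (smallest adjusted p of a member 0.411). Probe sets near the floor limit what can be said of Nkx2-1 and Nkx6-2.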

Other observations

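Genes of the caudal ganglionic eminence and preoptic area, neighbours of the MGE, had 5 of 6 kept genes higher by mean in ko and 0 called, with a median of 0.23. Nr2f1, a nuclear receptor and the brightest of them, differed by -0.13, and its relative Nr2f2 by 0.35 (SE 0.14, overlapping groups). Of 8 measured genes of oligodendrocyte precursors, cells that the MGE also produces, 5 were kept. Sox10, Cspg4 and Gpr17 were below the array median on all 6 arrays, so counts from this list do not measure such cells. Of the 5 kept genes, 4 were lower, 1 of them the knocked-out Olig2 itself, and 0 were called. The exception was Olig1, the neighbour of Olig2, which read 8.47, 8.55 and 8.01 in ko, against 7.17, 6.48 and 6.30 in wt. Pallial genes had 9 of 11 higher and a median of 0.10, with the brightest, Nfia and Lhx2, at 0.14 and 0.07. Blood (5 of 5 higher), endothelium (3 of 9 higher) and microglia (2 of 4 higher) had 0 called genes each, and Hbb-y, an embryonic globin, read 13.94 to 14.11 on all arrays.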
